A study of Homo sapiens with 9 samples.

Results

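The genes described here are 39 genes of the G1/S transition and of DNA replication, taken by name from a list out of 60719 genes in the deposited expression table. This list, and the lists of other pathway genes below, were chosen with earlier results of these data known. Their shares set beside those of all genes are therefore descriptive and are no test of the set. All 39 were found and passed the filter on low values (a level of at least 1 TPM, transcripts per length scaled to the same total in each library, in at least 3 of the 9 libraries), as did 13879 genes in all. The list held 15 MCM and licensing genes, 13 genes of polymerases and the replication fork, 4 of nucleotide supply, 5 cyclin and E2F genes, and UHRF1 and SLBP. The recipient cells were MDA-MB-231, an established human triple-negative breast cancer line, labelled wild type and kept for 72 h in medium with 5% serum depleted of exosomes. They received no vesicles (No sEV), small extracellular vesicles from donor MDA-MB-231 cells treated with DMSO (Cont sEV), or vesicles from donor MDA-MB-231 cells treated with 100 ng/ml nocodazole, a drug that blocks microtubule assembly (TIS sEV, for therapy induced senescence), with 3 bulk RNA libraries in each group. Both kinds of donor cells were treated for 72 h and released for 72 h before the vesicles were collected from their medium by differential centrifugation, and the labels give the same particle dose for both. The labels do not say that the 3 libraries of a group came from separate cultures, so the p-values below measure only the spread between these libraries, which may be technical. The question the design poses for these genes is whether vesicles, and vesicles from drug-treated rather than control donors, moved the replication program of the recipient cells.

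Cells leave G1 when cyclin D and cyclin E kinases phosphorylate RB, which frees E2F transcription factors to activate the genes for replication. In G1, the origin recognition complex with CDC6 and CDT1 loads the MCM2 to MCM7 ring onto DNA. Entry into S phase turns that ring into the active helicase by adding CDC45 and the GINS complex, after which primase, the replicative polymerases, the RFC clamp loader and the PCNA clamp copy the DNA. Transcripts of most of these genes are highest around the G1/S boundary, so in a bulk sample a larger share of cells at that stage and more of the RNA in each cell cannot be told apart.

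E2F factors bind a short consensus in the promoters of many of these genes. The promoters of the 4 genes with the smallest p-values between TIS sEV and Cont sEV are therefore printed from 200 bases before to 4 bases after the start, with a short window at the E2F word of CDT1 and CDC6. Sequences are from RefSeq (GRCh38.p14), read 5′ to 3′ on the strand of the gene, and capitals mark an E2F word, which is TTTCCCGC, TTTCGCGC, TTTGCCGC or TTTGGCGC on either strand. They lie at chr20:5126619-5126822 (PCNA, minus strand, the first of 2 listed starts), chr20:33686382-33686585 (E2F1, minus), chr11:61792711-61792914 (FEN1, plus), chr6:52284739-52284942 (MCM3, minus), chr16:88803744-88803771 (CDT1, plus) and chr17:40287876-40287903 (CDC6, plus).
PCNA: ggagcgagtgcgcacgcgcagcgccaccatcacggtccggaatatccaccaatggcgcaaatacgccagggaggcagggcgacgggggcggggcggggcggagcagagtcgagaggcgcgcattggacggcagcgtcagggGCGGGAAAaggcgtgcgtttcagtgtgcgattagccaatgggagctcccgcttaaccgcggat
E2F1: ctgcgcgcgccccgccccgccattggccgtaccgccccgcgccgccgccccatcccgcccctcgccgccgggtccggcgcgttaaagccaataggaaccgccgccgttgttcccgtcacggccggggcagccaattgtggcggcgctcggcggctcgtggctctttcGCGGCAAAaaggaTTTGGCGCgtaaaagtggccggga
FEN1: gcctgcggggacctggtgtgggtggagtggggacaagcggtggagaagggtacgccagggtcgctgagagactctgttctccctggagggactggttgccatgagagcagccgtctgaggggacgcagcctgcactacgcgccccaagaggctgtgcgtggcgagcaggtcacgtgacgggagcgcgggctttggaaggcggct
MCM3: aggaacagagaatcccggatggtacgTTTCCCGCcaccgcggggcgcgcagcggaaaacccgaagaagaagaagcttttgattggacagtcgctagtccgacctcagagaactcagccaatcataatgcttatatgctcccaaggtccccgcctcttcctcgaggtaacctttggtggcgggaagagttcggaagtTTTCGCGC
CDT1: cagggcgcccGCGGGAAAtttggcggga
CDC6: gccattcggaTTTGGCGCgagcgcggct

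An E2F word lay in the promoter of 20 of the 34 members that RefSeq's promoter table lists (58.8%), against 6.8% of the 10298 tested genes in that table and 4.0% of all 27305 genes in it. Each window ran from 250 bases before to 50 bases after a start, both strands were searched, and a gene counted when any of its listed starts had a word. MCM4, MCM5, GINS4, CCNE2 and CCND1 had no entry. PCNA had its word at positions -59 to -52 from the start, E2F1 had a pair at -33 to -26 and -20 to -13, and MCM3 had words at -174 to -167 and across the start at -4 to 4. MCM6 held 4 words in a pair of overlapping pairs, and FEN1 held none. Of the 28 words in all, 20, in 18 genes, lay between 60 bases before and 20 bases after the start, a range chosen after the positions were seen. The CCAAT box (CCAAT) was in 20 of the 34 promoters (58.8%) against 43.7% of tested genes, and the GC box (GGGCGG) was in 26 (76.5%) against 77.3%. The CHR element of genes of later cell cycle phases (TTTGAA) was in 1 of 34 (2.9%) against 13.7%. A match shows only that the letters are in the window.

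**Figure D1:**
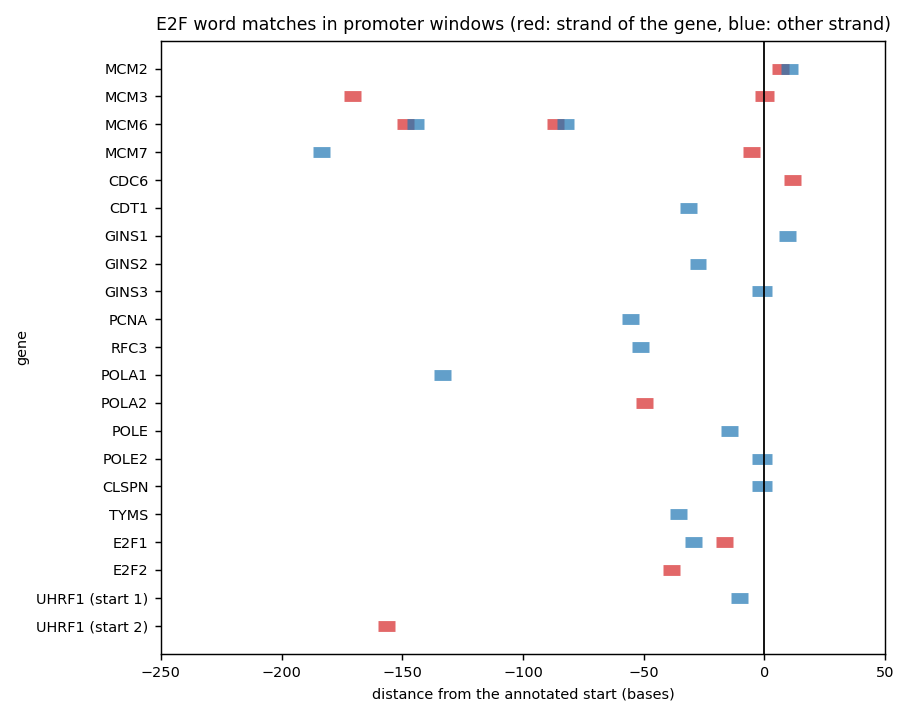
Positions of E2F words in the promoters of the members that have one, as distance in bases from the transcription start. Each gene has 1 row, except UHRF1, which has a row for each listed start with a word. Most of the 28 words sit close to the start: 20 lie between 60 bases before and 20 bases after it.

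Markers of the line were checked first. VIM, CD44 and KRT18, which these cells are known to express, averaged 2249, 469 and 419 TPM over the 9 libraries, and the hormone receptor genes ESR1 and PGR averaged 0.055 and 0.0092 TPM. The E-cadherin gene CDH1 averaged 0.24 TPM, while ERBB2 and EPCAM, listed with it as low or absent in this line, were measured at 28.1 and 23.0 TPM. CDKN2A, which encodes the CDK4 and CDK6 inhibitor p16 and is deleted in this line, was listed at 0 in all 9 libraries. Each library had between 21292 and 21975 genes above 0. TPM are shares of a library's reads per transcript length, so levels can be compared between genes but the number of reads behind them is unknown.

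Expression levels of the members spanned CCND1, the D-type cyclin of early G1, at a mean of 209 TPM over the 9 libraries, to E2F2, an activating E2F, at 1.06 TPM, which put E2F2 just at the filter. PCNA (173 TPM), TYMS (150 TPM), MCM3 (148 TPM), MCM7 (142 TPM), RRM2 (126 TPM), FEN1 (120 TPM) and TK1 (105 TPM) also exceeded 100 TPM, and 5 members (GINS2, ORC1, POLA1, POLA2 and E2F2) were under 10 TPM. Subunits that assemble in equal number had unequal transcript levels. Among the MCM ring genes, MCM3 and MCM7 stood at 148 and 142 TPM, MCM4 at 52.8, MCM2 at 39.4, MCM5 at 35.6 and MCM6 at 24.8 TPM. In the GINS complex GINS4 had 34.6 TPM and GINS2 had 8.89 TPM, and in the clamp loader RFC4 had 78.2 TPM and RFC3 had 18.7 TPM. The level of a member hardly varied between libraries: the coefficient of variation over all 9 had a median of 4.59%, from 2.06% to 18.2%, the last in POLA2.

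**Figure D2:**
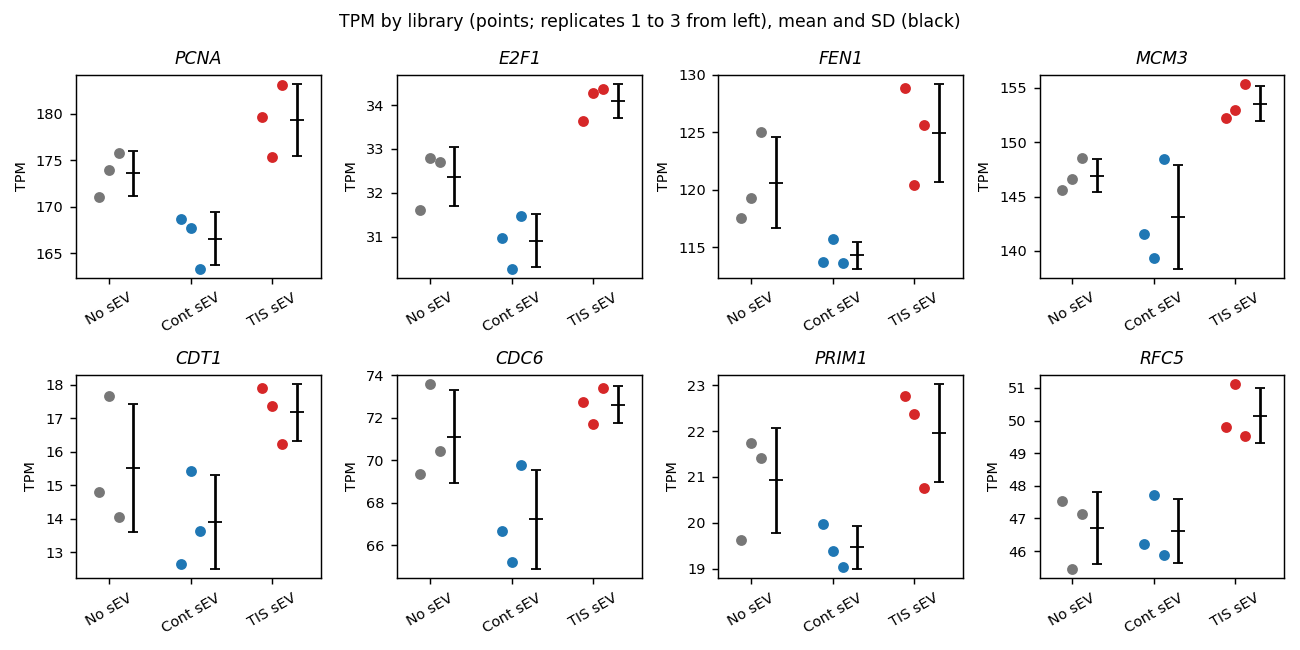
TPM in each library for the members with the smallest p-values between TIS sEV and Cont sEV, with points for libraries and black bars for the group mean and SD (n = 3, axes do not start at 0). In these genes the 3 TIS sEV libraries lie above the 3 Cont sEV libraries, and the TIS sEV mean in TPM is 7.26% (MCM3) to 23.5% (CDT1) higher.

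With vesicles from nocodazole-treated donors, replication genes had slightly higher levels than with vesicles from control donors, but 0 of the 39 members passed limma's test at an adjusted p of 0.05, where 13 of the 13879 genes tested did (0.0937%). On the log2(TPM + 1) scale, on which higher and lower are counted in each comparison, means were higher with TIS sEV for 33 members (84.6%) and lower for 6 (MCM4, MCM10, GINS2, RFC3, POLE and POLE2), against 59.6% of tested genes with a higher mean. POLE is the 1 member whose mean in TPM went the other way, at 10.53 with TIS sEV and 10.49 with Cont sEV. The median log2 fold change, computed on log2(TPM + 1) like all fold changes here, was 0.084 for the members, from -0.059 for MCM10 to 0.289 for CDT1, and 0.020 for all genes tested. At an unadjusted p under 0.05, 8 members were higher (20.5%) and 0 lower, against 7.07% and 2.93% of all genes. All 3 TIS sEV libraries exceeded all 3 Cont sEV libraries in 11 members (28.2%) and the reverse held in 0, against 10.9% and 4.47% of all genes. The 11 were MCM3, MCM6, CDC6, CDT1, PCNA, RFC5, POLA1, PRIM1, POLD1, FEN1 and E2F1. The 95% confidence interval of the fold change had a median half-width of 0.12 and lay within ±0.3 for 36 of the 39 members. For the 8 members of smallest p, described next by role, the adjusted p ranged from 0.206 to 0.621 over all alternative analyses. Quantile normalization lowered the members' median to 0.055 (29 members higher) and rescaling by median of ratios gave 0.064, with 28 members higher against 50.3%.

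**Figure D3:**
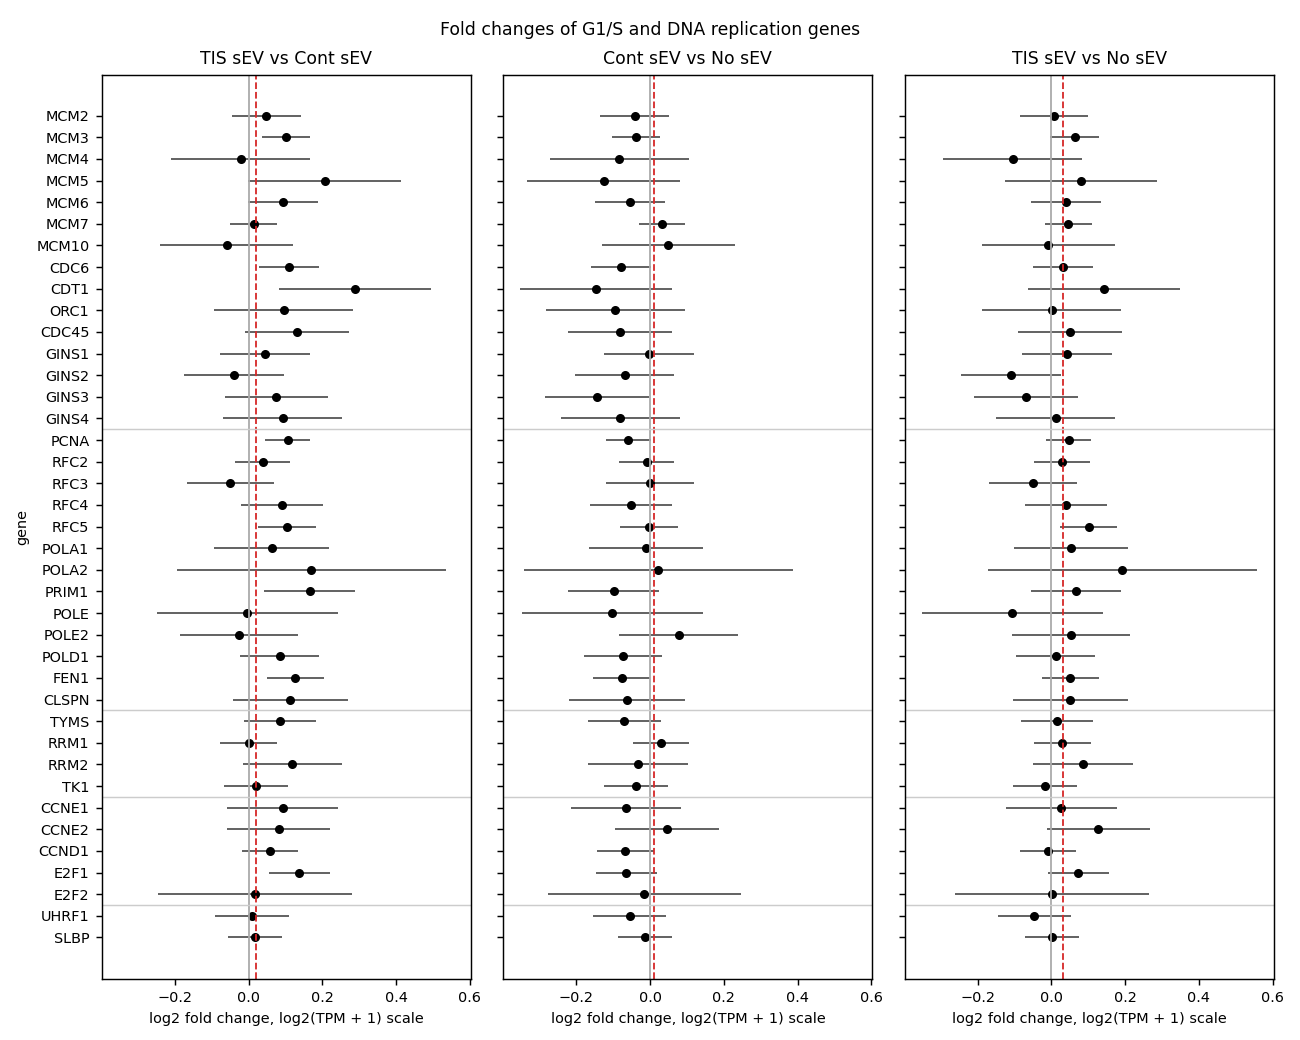
Log2 fold change of each member on the log2(TPM + 1) scale with its 95% confidence interval from limma, for the 3 comparisons between groups, with a dashed line at the median of all genes tested. Between TIS sEV and Cont sEV, 33 of 39 points lie to the right of 0 and 8 intervals leave out 0. Between Cont sEV and No sEV, 33 points lie to the left of it.

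Origin licensing starts with CDC6 and CDT1, and both were among the 8 members of smallest p. CDC6, the ATPase that joins the origin recognition complex, was at 69.3, 73.6 and 70.4 TPM with No sEV, 66.7, 65.2 and 69.8 TPM with Cont sEV, and 72.8, 71.7 and 73.4 TPM with TIS sEV. The TIS sEV libraries of CDC6 lay above those of Cont sEV and inside the range of No sEV. CDC6 differed between TIS sEV and Cont sEV by 0.11 on the log2 scale (SE 0.036, limma adjusted p = 0.357). CDT1 (ENSG00000167513.9, chr16:88803213-88809258), which delivers the MCM ring to CDC6-bound origins, had 14.8, 17.7 and 14.1 TPM with No sEV, 12.7, 15.4 and 13.6 TPM with Cont sEV, and 17.9, 17.4 and 16.2 TPM with TIS sEV. Its TIS sEV libraries were all above the Cont sEV ones, and the second No sEV library was as high as TIS sEV. Of all members CDT1 had the greatest fold change from Cont sEV to TIS sEV, 0.29 on the log2 scale (SE 0.092, 95% confidence interval 0.083 to 0.495, limma adjusted p = 0.337), which is 23.5% of the Cont sEV mean. ORC1, the largest subunit of the origin recognition complex, ranged from 6.28 to 7.67 TPM and its groups overlapped.

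Among the subunits of the MCM ring, MCM3 separated from Cont sEV and No sEV. MCM3 (ENSG00000112118.20, chr6:52264009-52284881) had 145.6, 146.6 and 148.5 TPM with No sEV, 141.5, 139.4 and 148.5 TPM with Cont sEV, and 152.3, 153.0 and 155.4 TPM with TIS sEV. All 3 TIS sEV libraries were above the other 6, and the third Cont sEV library reached the top of No sEV. The log2 fold change of MCM3 from Cont sEV to TIS sEV was 0.10 (SE 0.030, limma adjusted p = 0.287). MCM6 was at 24.6, 24.1 and 23.2 TPM with Cont sEV and 26.1, 25.8 and 24.9 TPM with TIS sEV, with No sEV between 24.4 and 25.3 TPM. MCM5 varied more within its groups: it had 35.6, 32.5 and 39.8 TPM with No sEV, 31.0, 34.0 and 33.3 TPM with Cont sEV, and 42.9, 38.0 and 33.4 TPM with TIS sEV. The third TIS sEV library of MCM5 lay within the Cont sEV range. MCM2, MCM4 and MCM7 overlapped in all 3 groups, and MCM4 was highest in the first No sEV library, at 62.8 TPM against 47.3 to 55.6 TPM in the other 8. MCM10, which joins the helicase at origin firing, was highest in the third Cont sEV library at 19.8 TPM and ran from 15.5 to 17.1 TPM elsewhere.

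Helicase activation genes overlapped between TIS sEV and Cont sEV. CDC45 had 22.9, 24.5 and 20.9 TPM with Cont sEV and 24.9, 23.6 and 26.6 TPM with TIS sEV. GINS2 went the other way from most members and was highest with No sEV, at 9.50, 9.06 and 9.35 TPM, with 8.37, 8.95 and 9.16 TPM for Cont sEV and 8.47, 8.86 and 8.32 TPM for TIS sEV. All 3 No sEV libraries of GINS2 exceeded all 3 TIS sEV libraries. Over the 15 MCM and licensing genes together, 12 were higher in TIS sEV than in Cont sEV, the median fold change was 0.092, and the libraries of 4 did not overlap, against 59.6% of all genes higher and 10.9% higher without overlap.

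At the fork, the sliding clamp PCNA had the smallest p of the 39 members. PCNA (ENSG00000132646.11, chr20:5114953-5126626) was at 171.0, 174.0 and 175.7 TPM with No sEV, 168.7, 167.7 and 163.4 TPM with Cont sEV, and 179.6, 175.3 and 183.0 TPM with TIS sEV. Cont sEV lay below both other groups in every library, while the second TIS sEV library fell within the No sEV range. PCNA's log2 fold change from Cont sEV to TIS sEV was 0.11 (SE 0.027, 95% confidence interval 0.045 to 0.167, limma adjusted p = 0.234), which is 7.65% of the Cont sEV mean. FEN1 (ENSG00000168496.4, chr11:61792637-61797244), the flap nuclease that trims Okazaki fragments, had 117.5, 119.3 and 125.1 TPM with No sEV, 113.7, 115.7 and 113.6 TPM with Cont sEV, and 128.9, 120.4 and 125.6 TPM with TIS sEV. As in PCNA, the Cont sEV libraries of FEN1 were all below the other 6, and No sEV overlapped TIS sEV. In single comparisons Cont sEV lay wholly below No sEV in 4.47% of all genes and below TIS sEV in 10.9%. The share of all genes with a group apart from both others was not computed, here or for any other gene named. The difference between TIS sEV and Cont sEV in FEN1 was 0.13 on the log2 scale (SE 0.035, limma adjusted p = 0.253).

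Primase and the clamp loader had 1 gene each among the 8. PRIM1, the catalytic primase subunit, had 19.6, 21.8 and 21.4 TPM with No sEV, 19.97, 19.4 and 19.0 TPM with Cont sEV, and 22.8, 22.4 and 20.8 TPM with TIS sEV. Its No sEV libraries overlapped both other groups, and its fold change from Cont sEV to TIS sEV was 0.17 (SE 0.055, limma adjusted p = 0.362). RFC5 had 47.5, 45.5 and 47.1 TPM with No sEV, 46.2, 47.7 and 45.9 TPM with Cont sEV, and 49.8, 51.1 and 49.5 TPM with TIS sEV. Here No sEV and Cont sEV overlapped and TIS sEV alone was above them, by 0.10 over Cont sEV (SE 0.035, limma adjusted p = 0.366). The other RFC genes did not share this order: RFC3 had 18.5, 19.1 and 19.1 TPM with Cont sEV and 18.6, 18.8 and 17.3 TPM with TIS sEV, and RFC2 and RFC4 overlapped. POLD1, the catalytic subunit of polymerase delta, separated TIS sEV (19.7, 20.2 and 20.4 TPM) from Cont sEV (19.7, 18.5 and 18.6 TPM) only narrowly, its closest libraries being 19.701 and 19.673 TPM. POLE and POLE2, of the leading-strand polymerase epsilon, overlapped between all groups, at 9.25 to 12.6 TPM and 23.4 to 28.99 TPM. Of the 13 polymerase and fork genes, 10 were higher in TIS sEV than in Cont sEV on the log2 scale, the median fold change was 0.091, and the libraries of 6 did not overlap, against 10.9% of all genes.

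E2F1 (ENSG00000101412.13, chr20:33675683-33686404), the activating E2F whose own promoter carries E2F words, had 31.6, 32.8 and 32.7 TPM with No sEV, 31.0, 30.3 and 31.5 TPM with Cont sEV, and 33.6, 34.3 and 34.4 TPM with TIS sEV. The 3 groups of E2F1 did not overlap, with Cont sEV lowest, No sEV between and TIS sEV highest. Cont sEV and No sEV were only narrowly apart, their closest libraries being 31.48 and 31.60 TPM. The share of all genes with 3 groups apart was not computed. In single comparisons, all TIS sEV libraries exceeded all Cont sEV libraries in 10.9% of all genes and all No sEV libraries in 11.3%. Cont sEV lay wholly below No sEV in 4.47%. E2F1's fold change from Cont sEV to TIS sEV was 0.14 on the log2 scale (SE 0.037, 95% confidence interval 0.055 to 0.220, limma adjusted p = 0.248), which is 10.3% of the Cont sEV mean. CCND1 had 221.3, 205.6 and 212.7 TPM with No sEV, 202.5, 197.5 and 210.1 TPM with Cont sEV, and 209.8, 216.1 and 209.4 TPM with TIS sEV. Its groups overlapped, with the third Cont sEV library above 2 of the TIS sEV libraries. The cyclin E genes, which act after cyclin D, stood at 9.54 to 11.6 TPM for CCNE1 and 10.5 to 12.5 TPM for CCNE2. All 3 TIS sEV libraries of CCNE2 (11.6, 11.2 and 12.5 TPM) exceeded the No sEV ones (11.0, 10.5 and 10.6 TPM), while the second Cont sEV library reached 11.7 TPM. All 5 cyclin and E2F genes had higher means in TIS sEV than in Cont sEV, against 59.6% of all genes, with a median fold change of 0.081 against 0.020. E2F2 hardly differed, at means of 1.07 TPM with TIS sEV and 1.05 TPM with Cont sEV.

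Nucleotide supply genes showed wide overlap. RRM2, the regulated subunit of ribonucleotide reductase, had 122.5, 120.4 and 131.4 TPM with No sEV, 125.6, 125.0 and 115.3 TPM with Cont sEV, and 133.3, 121.5 and 143.2 TPM with TIS sEV. The lowest and the highest value of RRM2 came from single libraries, the third of Cont sEV and the third of TIS sEV. TYMS, which makes thymidylate, had 151.4, 140.5 and 142.2 TPM with Cont sEV and 145.3, 160.0 and 155.7 TPM with TIS sEV, and RRM1 and TK1 stood at 90.9 to 98.4 TPM and 101.4 to 110.1 TPM. All 4 had higher means in TIS sEV than in Cont sEV, against 59.6% of all genes, with a median fold change of 0.053 against 0.020. RRM1 hardly differed, at means of 95.12 TPM with TIS sEV and 95.10 TPM with Cont sEV, and TK1 averaged 105.1 and 103.6 TPM. In 0 of 4 did all TIS sEV libraries exceed all Cont sEV libraries, or the reverse, against 10.9% and 4.47% of all genes. UHRF1, which carries DNA methylation through replication, and SLBP, the histone mRNA binding protein, had a median fold change of 0.012.

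**Figure D4:**
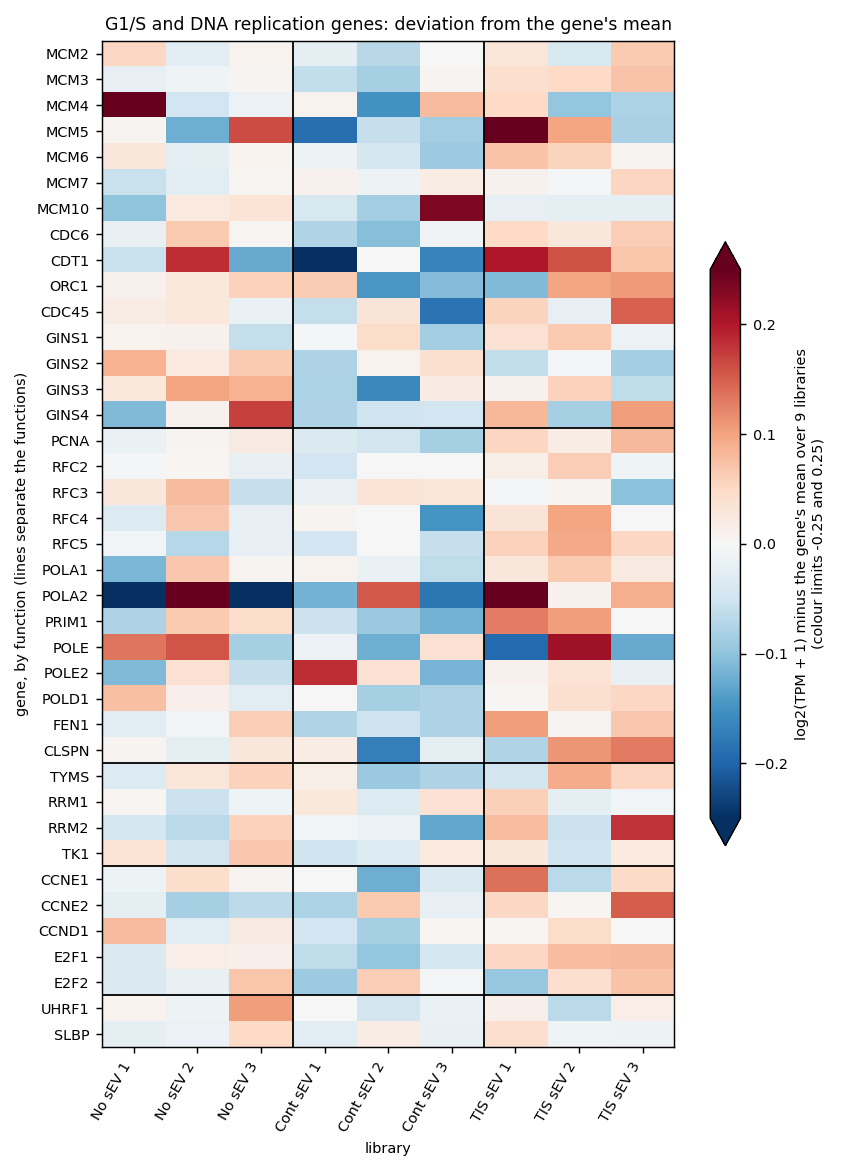
Deviation of each member in each library from its mean over all 9 libraries, on the log2(TPM + 1) scale, with members in rows by function and libraries in columns by group. The 3 Cont sEV columns are mostly below 0, with 11, 10 and 13 of 39 members above their own mean, and the 3 TIS sEV columns mostly above it, with 31, 26 and 27.

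Set against cells without vesicles, cells given control vesicles had slightly lower replication transcripts. Means were lower with Cont sEV than with No sEV for 33 members (84.6%) and higher for 6 (MCM7, MCM10, POLA2, POLE2, RRM1 and CCNE2), where 56.5% of all genes tested were higher. The members' median fold change was -0.055, from -0.146 for CDT1 to 0.078 for POLE2, and that of all genes was 0.011. By limma, 0 members and 0% of all genes passed the adjusted threshold. At an unadjusted p under 0.05, 0 members were higher and 1, GINS3, was lower, against 3.53% and 2.50% of all genes. GINS3, a helicase subunit, had 12.8, 13.5 and 13.4 TPM with No sEV and 11.9, 11.1 and 12.8 TPM with Cont sEV. Its highest Cont sEV library came close to the lowest of No sEV, and its fold change was -0.14 (SE 0.063, limma adjusted p = 0.807). PCNA, FEN1, E2F1 and GINS3 had all 3 Cont sEV libraries below all 3 No sEV libraries, and 0 members had them all above, against 4.47% and 6.72% of all genes. PCNA was 4.03% lower by mean and FEN1 5.23% lower. Without the third No sEV library, or without the first Cont sEV library, the number of members with a higher mean was 10.

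Levels with TIS sEV and No sEV were closer. Means were higher with TIS sEV for 30 members (76.9%) and lower for 9, against 66.7% of all genes, and the median fold change was 0.030 for the members and 0.032 for all genes. Once libraries were rescaled by median of ratios, 19 members were higher, against 50.8% of all genes, and the members' median was -0.00234. By limma 0 members passed, where 0.00721% of all genes (1 gene) did. At an unadjusted p under 0.05, 1 member was higher and 0 lower, against 6.33% and 1.64% of all genes. That member was RFC5, 0.10 higher on the log2 scale (SE 0.035, limma adjusted p = 0.558). All TIS sEV libraries were above all No sEV libraries in 4 members, MCM3, RFC5, CCNE2 and E2F1, and below them in GINS2 alone, against 11.3% and 2.77% of all genes. Each group enters 2 of the 3 comparisons, so the comparisons share libraries and are not independent of each other.

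The order of the 3 groups can be read from the means in TPM without a test. Cont sEV had the lowest mean in 30 of the 39 members (76.92%), against 34.52% of all genes tested, and TIS sEV had the highest in 29, No sEV in 8 and Cont sEV in 2. The share of all genes with TIS sEV highest was not computed. On the log2 scale 66.7% of all genes were higher with TIS sEV than with No sEV and 59.6% than with Cont sEV. The count of 29 rests on TPM as deposited: after rescaling by median of ratios, 19 of the 39 members were higher with TIS sEV than with No sEV. A test of any difference among the 3 groups, limma's F test, passed 0 members and 0.0216% of all genes at the adjusted threshold. At an unadjusted p under 0.05 it passed 8 of the 39 members, against 1210 of the 13879 genes tested (8.72%). The smallest adjusted p of the F test was 0.429, for PCNA.

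Summed over the 39 members, the libraries held 2098, 2094 and 2138 TPM with No sEV, 2057, 2031 and 2051 TPM with Cont sEV, and 2161, 2134 and 2165 TPM with TIS sEV. The Cont sEV sums were the lowest 3 of the 9 and did not overlap either group, while the second TIS sEV library was below the third No sEV library. The group means were 2110 ± 24.5 TPM, 2047 ± 13.7 TPM and 2153 ± 16.7 TPM (SD, n = 3 each). The median deviation of the members from their own means was -0.0122, 0.0098 and 0.0080 with No sEV, -0.0370, -0.0450 and -0.0362 with Cont sEV, and 0.0378, 0.0340 and 0.0487 with TIS sEV. After the same median over all tested genes was taken off in each library, these became 0.0087, 0.0286 and 0.0132, then -0.0512, -0.0156 and -0.0398, then 0.0264, 0.0060 and 0.0399. Cont sEV stayed below both groups in that reading, and No sEV and TIS sEV overlapped. The share of TPM from mitochondrially encoded genes also differed, at 2.47% to 2.92% with No sEV, 2.58% to 3.39% with Cont sEV and 2.07% to 2.52% with TIS sEV. Its part in the members' values was not tested beyond the fit without those genes. In that fit the medians between TIS sEV and Cont sEV were 0.073 for the members and 0.0097 for all genes.

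**Figure D5:**
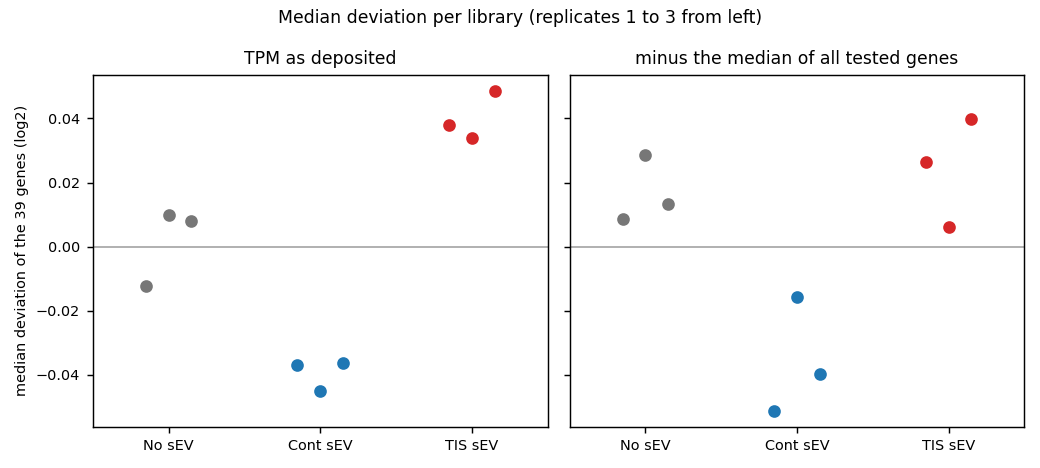
Median deviation of the 39 members in each library from their means over all 9 libraries, on the log2(TPM + 1) scale, as deposited and after the median over all tested genes was subtracted. As deposited the 3 groups separate, and after the subtraction only Cont sEV, at -0.0512 to -0.0156, lies apart.

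Members differed in how closely they tracked the rest of the set. Correlated over the 9 libraries with the mean of the other members, E2F1 had r = 0.940, PCNA 0.905, PRIM1 0.880, FEN1 0.861, CDC6 0.860 and MCM3 0.802, and the median over members was 0.464. RFC3 (r = -0.362), GINS2 (-0.291), MCM10 (-0.256) and MCM4 (-0.231) ran against it. These values describe 9 libraries that share their group structure and their scaling, and carry no test. Of the 20 members with an E2F word in the promoter, 16 were higher in TIS sEV than in Cont sEV and the median was 0.069. Of the 14 listed members without one, 13 were higher and their median was larger, at 0.091. Among all genes 59.6% were higher and the median was 0.020.

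Other genes of the same pathway, from 7 lists of 122 genes that exclude the 39, were examined beside the members. Of the 120 that passed the filter, 90 had higher means in TIS sEV than in Cont sEV (75.0%, against 59.6% of all genes), the median was 0.035 against 0.020, and 0 passed limma's adjusted threshold. At an unadjusted p under 0.05, 17 were higher (14.2%) and 0 lower, against 7.07% and 2.93% of all genes. By list, 14 of 17 origin genes, 16 of 19 fork genes, 14 of 18 nucleotide genes, 11 of 15 cyclin and CDK genes, 12 of 18 E2F, RB and DREAM genes, 10 of 11 chromatin replication genes and 13 of 22 checkpoint and repair genes were higher. Chromatin replication had the greatest median of these, 0.087, close to the 0.084 of the members. The medians of E2F, RB and DREAM (0.009) and of checkpoint and repair (0.016) were below the 0.020 of all genes. Against No sEV, 83 were higher with TIS sEV (69.2%, median 0.031), near the 66.7% and 0.032 of all genes. Chromatin replication again had the greatest median of the lists there, 0.073 with 10 of 11 genes higher, above the 0.030 of the members. With Cont sEV 50 were higher than with No sEV (41.7%, median -0.016), against 56.5% and 0.011 of all genes, and the E2F, RB and DREAM list had a median of 0.011.

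CDK2, the kinase partner of cyclin E, had 64.6, 58.1 and 65.6 TPM with No sEV, 64.1, 67.9 and 64.4 TPM with Cont sEV, and 72.4, 71.9 and 75.3 TPM with TIS sEV. TIS sEV was above the other 6 libraries, by 0.16 over Cont sEV (limma adjusted p = 0.313) and 0.22 over No sEV (limma adjusted p = 0.318). CDK4 averaged 188 TPM with No sEV, 185 with Cont sEV and 183 with TIS sEV, and CDK6 averaged 13.9, 14.5 and 14.1 TPM. Neither G1 kinase therefore showed the order seen in CDK2. The CDK inhibitor CDKN1A (p21), which rises in arrested and senescent cells, had 112.6 ± 2.61 TPM with No sEV, 115.7 ± 3.65 with Cont sEV and 116.5 ± 1.63 with TIS sEV (SD, n = 3), a fold change of 0.010 between TIS sEV and Cont sEV. CDKN1B (p27) averaged 30.4, 29.8 and 31.9 TPM in that order, RB1 21.6, 22.3 and 24.0 TPM, and GMNN, the CDT1 inhibitor geminin, 90.2, 86.0 and 87.4 TPM. CCNA2, the S phase cyclin, averaged 56.7, 56.1 and 57.5 TPM. CDKN2D, another inhibitor of CDK4 and CDK6, averaged 66.5, 63.6 and 69.2 TPM, with a limma adjusted p of 0.248 between TIS sEV and Cont sEV.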

How the data were processed

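Bulk RNA was sequenced from 9 libraries of MDA-MB-231 cells, 3 in each of 3 groups. The deposited values are TPM per gene and library, made by the authors. The submitters' processing notes name FastQC 0.11.9, Trim Galore 0.6.6, Salmon 1.4.0, DESeq2 1.28.0 and GRCh38.p13, and name no release of the annotation. TPM keep no read depth, so no count model was used. Gene identifiers were matched to symbols through GENCODE 29 (99.51% matched), which also gave the gene coordinates (GRCh38).

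Genes that reached 1 TPM in 3 or more libraries were fitted on log2(TPM + 1) with limma 3.58.1 (R 4.3.3), a variance trend, all 9 libraries in 1 fit and no block. P-values are two-sided and Benjamini-Hochberg adjusted over all 13879 genes, with a threshold of 0.05. The procedure was tested on simulated data. Fold changes of low genes are understated by the pseudocount.

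The members and the pathway lists were chosen with earlier results of these data known. All members could be named; fold change with its error and p were given for the 8 of smallest p between TIS sEV and Cont sEV and up to 4 in each other comparison. Pathway genes were named from those of smallest p, up to 2 a list, or from a set of 8 cell cycle regulators. Not every gene of smallest p is given. In the checkpoint and repair list the smallest limma adjusted p between TIS sEV and Cont sEV was 0.282, in a gene other than BLM. Alternatives changed the pseudocount, filter, scaling, GC and length trends, variance prior, library weights, replicate block and the libraries included.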

Additional observations from a re-analysis of the deposited data

How the results depend on the processing

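Of the 39 members, 0 passed the adjusted threshold under any alternative run, in each comparison and in limma's F test, and the fold changes recomputed there, of the 8 members of smallest p between TIS sEV and Cont sEV and of 4 in each other comparison, kept their direction. Between TIS sEV and Cont sEV the members' median of 0.0844 became 0.0641 with median of ratios, 0.0553 with quantile normalization, 0.0735 without mitochondrially encoded genes, 0.0585 with GC and length trends removed and 0.0684 with library weights, and ran from 0.0634 to 0.0844 when 1 library was left out. Between TIS sEV and No sEV the median of 0.0302 became -0.00234 with median of ratios (19 members higher), 0.00487 with GC and length trends removed and 0.00277 with quantile normalization. Between Cont sEV and No sEV the median of -0.0550 became -0.0663 with median of ratios and -0.0652 with quantile normalization, and ran from -0.0648 to -0.0492 with 1 library left out, with 5 to 10 members higher. The median of all genes was 0.0203 between TIS sEV and Cont sEV, 0.0320 between TIS sEV and No sEV and 0.0110 between Cont sEV and No sEV before any rescaling. With median of ratios these became 0.000647, 0.00135 and 0.000407, and with quantile normalization 1.78e-15, -0.00166 and -0.00124. Between TIS sEV and Cont sEV the median of all genes was 0.00966 without mitochondrially encoded genes and 0.000378 with GC and length trends removed. Library weights gave 0.0147 there. With the replicate number as a block, 0 members passed and the medians were 0.0844, 0.0302 and -0.0550, while 9 genes in all passed between TIS sEV and Cont sEV in place of 13. Same-numbered libraries had correlations of deviations from -0.0574 to 0.140 over 10483 genes, and not every library correlated best with those of its own number, so the numbers were not taken to pair libraries. Over the alternatives, all genes called numbered 2 to 17 between TIS sEV and Cont sEV, 0 to 9 between TIS sEV and No sEV, 0 to 7 between Cont sEV and No sEV, and 2 to 13 by the F test.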

Other observations

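Chromatin replication genes outside the 39 held the smallest p of the pathway lists. NASP, a histone chaperone, had 208, 219 and 222 TPM with No sEV, 213, 199 and 193 TPM with Cont sEV, and 232, 233 and 245 TPM with TIS sEV. TIS sEV lay above the other 6 libraries, with a log2 fold change over Cont sEV of 0.23 (SE 0.042, limma adjusted p = 0.11). SSRP1, a subunit of the FACT chaperone, had 184, 186 and 188 TPM with Cont sEV and 198, 200.4 and 206 TPM with TIS sEV (limma adjusted p = 0.238). From the list of other fork genes, LIG1, which seals Okazaki fragments, had 19.5, 19.1 and 17.0 TPM with Cont sEV and 25.1, 21.0 and 21.3 TPM with TIS sEV (limma adjusted p = 0.306). The No sEV libraries of LIG1 stood at 19.6, 21.8 and 19.7 TPM. From the checkpoint and repair list, whose median fold change was 0.016, BLM, a RecQ helicase, had 6.25, 5.34 and 5.49 TPM with Cont sEV and 8.55, 7.52 and 6.30 TPM with TIS sEV (limma adjusted p = 0.354). For SSRP1 and BLM only these 2 groups are given, so their place against No sEV is not described.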
